A study of Mus musculus with 8 samples.

Results

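A set of 10 gene symbols is described here, all of them parts of the inflammasome or of pyroptosis. They are the sensors Nlrp3, Nlrp1b, Aim2 and Naip5, the adaptor Pycard (ASC), the caspases Casp1, Casp4 and Casp8, and the pore formers Gsdmd and Gsdme. The members were taken by symbol from the reverse-strand column of the 8 gene count tables. All 10 of 10 were among the 50763 genes listed, and all 10 were among the 16608 genes that passed the filter on low counts.

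The hosts were wild-type mice (WT, C57BL/6) and muMT mice, whose B cells do not mature because membrane IgM is missing. All of them carried GL261, a mouse glioma line marked with mCherry and EGFP, in the brain, and were given isotype IgG or antibody to CTLA-4, a brake receptor on T cells. On day 23 after implantation the live cells positive for mCherry and CD45.2, called phagocytes in the labels, were sorted. Tumour, sort gate and day are thus common to all groups. Each combination of host and antibody is a group of 2 libraries. Age and antibody dose are not given in the sources used here, and neither is whether the 2 libraries of each group were from different animals, so p-values here rest on the spread of the libraries, which may be technical.

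An inflammasome is a protein complex that forms in the cytosol when a sensor meets a microbial product or a sign of cell damage. Most sensors recruit ASC, which gathers caspase-1, and caspase-1 then matures IL-1β and IL-18 and cuts gasdermin D into a pore-forming fragment, which ends in the lytic death called pyroptosis. Mouse caspase-11, the product of Casp4, senses cytosolic lipopolysaccharide itself and also cuts gasdermin D. Macrophages are a main site of this pathway, where inflammatory signals raise the transcription of Nlrp3 and Il1b before any complex forms. The values below are RNA levels, and complex assembly, cleavage and cell death were not measured.

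Reads in genes per library lay between 24784639 and 31289104, and the chi-square per degree of freedom between libraries of 1 group was 1.75 to 7.09, where counting error alone gives about 1. It was 7.09 in muMT and 4.50 in WT under isotype, and 1.75 and 2.01 under anti-CTLA-4. The tests used an estimate of spread shared by all groups, so their p-values do not reflect that difference. The summed level of 12 phagocyte markers was 12324 to 16969.9 CPM (a gene's read count relative to the library's reads in genes, with library sizes scaled by the trimmed mean of M-values, TMM). In muMT this sum was 13698 and 14024.5 CPM with isotype and 15761 and 15916 CPM with anti-CTLA-4. In WT it was 12324 and 12437 and then 16735 and 16969.9 CPM. Of the 12 markers 3 rose and 4 fell in muMT, and 5 rose and 2 fell in WT. Lyz2 averaged 5821 and then 8565 CPM in muMT, and 4808 and then 9137 CPM in WT. The summed level of 10 neutrophil markers was 136 to 159 CPM, that of 11 T and NK cell markers 38.4 to 54.3 CPM with Trac at 0 reads in every library, and that of 7 B and plasma cell markers 5.24 to 9.96 CPM with Ighm at 0. Other markers of these lists had reads in all groups. Cd3g had 233 and then 198 reads in muMT and 138 and then 239 in WT, and Cd79b 472 and 310 and then 423 and 247. Trac or Ighm at 0 thus does not show a lack of lymphocyte RNA. Uniquely mapped reads in no gene made up 18.6% to 20.8% of the muMT libraries, 28.4% and 29.5% of those of WT under isotype and 33.3% and 33.1% of those of WT under anti-CTLA-4. Monocyte markers summed to 2467 and 2482 CPM in muMT with anti-CTLA-4, against 881 and 933 CPM with isotype, and to 673 and 706 and then 715 and 720.3 CPM in WT. Of these markers Chil3 averaged 1741 CPM in muMT with anti-CTLA-4 and 260 CPM with isotype. In WT Chil3 averaged 125 CPM with isotype and 30.1 CPM with anti-CTLA-4. Microglia markers summed to 2109 and 2245 CPM in muMT with isotype and 1419.8 and 1442 CPM with anti-CTLA-4, and to 2044 and 2054 and then 1733 and 1784 CPM in WT. Mast cell markers summed to 41.9 and 43.6 and then 8.87 and 9.29 CPM in muMT, and to 20.6 and 22.4 and then 30.9 and 32.0 CPM in WT. Fibroblast and mural cell markers went from 368 and 373 to 136 and 136 CPM in muMT and from 256 and 267 to 181 and 185 CPM in WT, and endothelial markers from 165 and 168 to 259 and 269 CPM and from 273 and 277 to 317 and 329 CPM. Of the 8 endothelial markers 3 rose and 4 fell in muMT, and 5 rose and 1 fell in WT. The muMT sum was carried by Pecam1 (means of 69.8 and then 128 CPM) and Flt1 (25.1 and then 79.7 CPM). Dendritic cell markers summed to 48.6 to 65.1 CPM and oligodendrocyte markers to 98.3 to 128 CPM. The part of these shifts in the results below was not tested, and in bulk RNA fewer cells of a type cannot be told apart from less RNA per cell.

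The promoters of Casp1, Casp4 and Nlrp3 are printed because the 2 caspase genes are neighbours whose RNA diverged in muMT, and Nlrp3 is the most abundant member. RefSeq promoter windows of build GRCm38.p6 (250 bases before to 50 after a start) were found for 9 of the 10 members, 12 windows in all, and Gsdmd had no entry. Capitals mark matches to the NF-kB consensus on either strand, which overlap in Casp4.
Casp1 (chr9:5298267-5298566, plus strand): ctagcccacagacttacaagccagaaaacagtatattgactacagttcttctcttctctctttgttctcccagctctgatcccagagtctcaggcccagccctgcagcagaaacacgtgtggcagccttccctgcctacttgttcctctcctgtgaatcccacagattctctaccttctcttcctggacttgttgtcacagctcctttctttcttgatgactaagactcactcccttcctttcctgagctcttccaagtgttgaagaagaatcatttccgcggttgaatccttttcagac
Casp4 (chr9:5308599-5308898, plus strand): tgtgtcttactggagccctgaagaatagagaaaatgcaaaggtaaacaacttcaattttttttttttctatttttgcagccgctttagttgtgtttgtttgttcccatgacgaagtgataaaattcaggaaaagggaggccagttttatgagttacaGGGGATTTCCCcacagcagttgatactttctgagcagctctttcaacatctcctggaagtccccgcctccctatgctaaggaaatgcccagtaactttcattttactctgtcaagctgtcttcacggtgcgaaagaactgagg
Nlrp3 (chr11:59541319-59541618, plus strand): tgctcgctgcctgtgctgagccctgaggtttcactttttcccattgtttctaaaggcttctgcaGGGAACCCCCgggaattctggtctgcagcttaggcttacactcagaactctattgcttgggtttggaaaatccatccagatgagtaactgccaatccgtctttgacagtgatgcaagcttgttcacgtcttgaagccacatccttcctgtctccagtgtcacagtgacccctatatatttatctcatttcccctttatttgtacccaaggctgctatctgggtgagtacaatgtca
The Casp4 window held overlapping matches that began at positions -93 and -92 from the start site, and the Nlrp3 window a match on the minus strand at -186. Naip5 was the other member with a match, so 3 of 9 members had one in at least 1 window (both windows of Casp4, which overlap, and 1 of the 2 of Nlrp3), beside 4.51% of all 32851 promoter windows of this length. The latter is a share of windows and not of genes, so the 2 cannot be compared directly. Neither the core of the interferon-stimulated response element (GAAA, any 2 bases, GAAA) nor the interferon-gamma activated site TTCNNNGAA, searched on both strands, was found in a window of any of the 9 members, and 3.44% and 8.30% of all windows held them. A match describes letters and does not show binding, and a window without one says nothing of the factor.

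Nlrp3 and Aim2 rose with anti-CTLA-4 in WT and fell in muMT, Pycard and Casp8 rose in muMT alone among the calls, and Casp1, Gsdmd and Nlrp1b rose in both hosts. With anti-CTLA-4 in WT, 8 of 10 members rose and 0 fell by edgeR's quasi-likelihood test (0 fell at an unadjusted p under 0.05, and 0 by DESeq2). Among all tested genes 30.5% were called, 14.7% higher and 15.9% lower. In muMT 5 members rose and 2 fell, beside 22.1% of all genes higher and 20.4% lower (42.5% in all). The median log2 fold change of the members was 0.39 in WT and 0.20 in muMT, and that of all tested genes -0.01 and -0.00. The anti-CTLA-4 effect itself differed between the hosts for 8 of 10 members. It was more positive in WT for 6 and in muMT for 2, beside 17.5% and 19.8% of all genes (37.3% in all). Under isotype WT was higher than muMT for 5 members and lower for 4, beside 19.9% and 19.2% of genes (39.2% in all). Under anti-CTLA-4 WT was higher for 7 and lower for 2, beside 27.4% and 28.7% (56.1% in all). The members that fell in muMT were 1 without muMT anti-CTLA-4 replicate 2, and those lower in WT under anti-CTLA-4 were 1 without WT anti-CTLA-4 replicate 1 or with total reads as the only scaling. In unstranded counts 4 were higher in WT under anti-CTLA-4. The 2 groups compared did not overlap in CPM for 9 members with anti-CTLA-4 in WT (beside 64.3% of genes), 10 in muMT (68.5%), 9 between hosts under isotype (66.2%) and 10 under anti-CTLA-4 (79%). 9 members averaged over 50 CPM, and among the 3902 genes with at least that mean the called share was 53.3%, 62%, 59.6%, 61.4% and 78.1% for WT, muMT, their difference, and the hosts under isotype and under anti-CTLA-4. The members' shares called, 80%, 70%, 80%, 90% and 90%, stand nearer to these than to the shares over all genes. These comparisons share libraries and are not independent of each other.

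**Figure D1:**
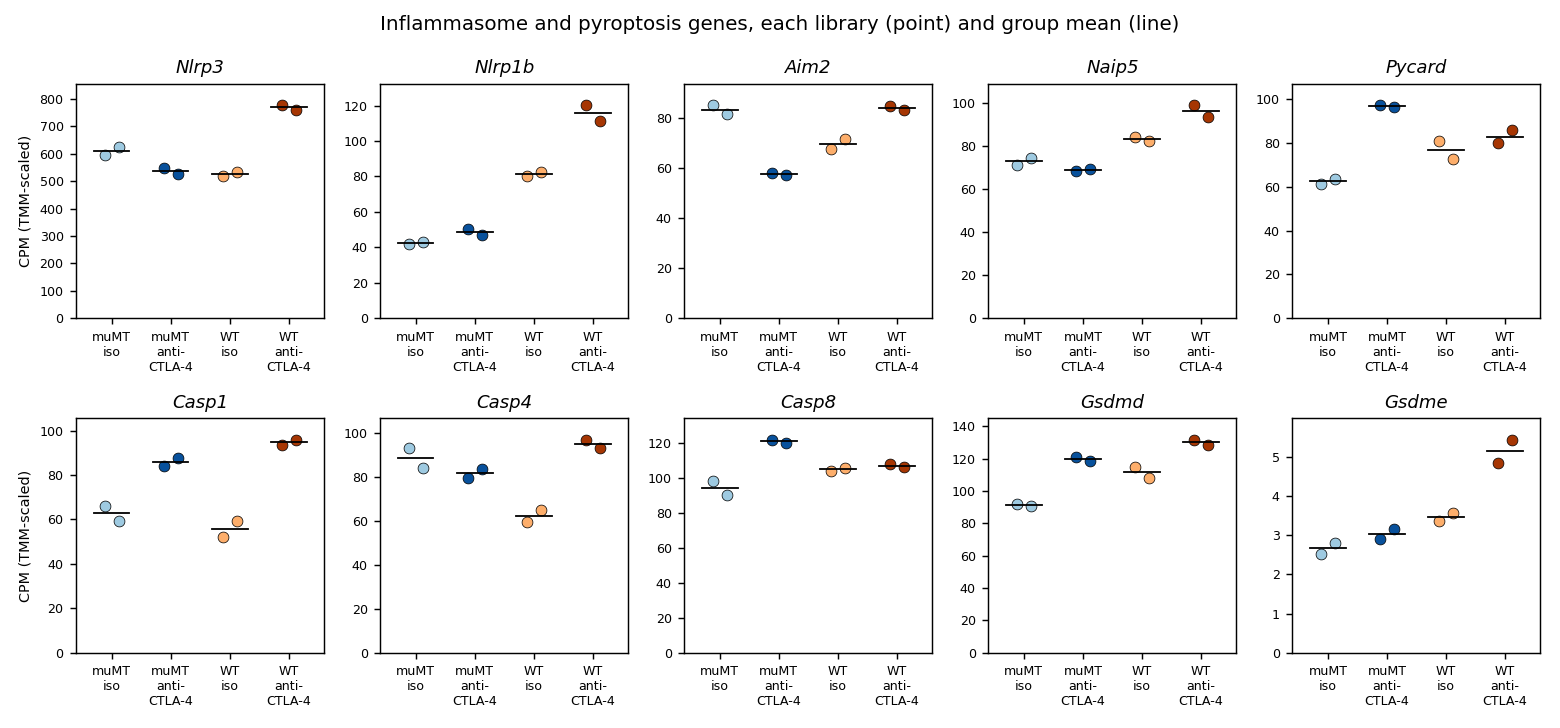
CPM of the 10 members in each of the 8 libraries (points) with group means (lines), one panel per gene, each axis starting at 0. Nlrp1b lies in 4 separate steps from muMT isotype up to WT anti-CTLA-4, while Pycard and Casp8 are highest in muMT anti-CTLA-4.

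Nlrp3, the sensor of potassium loss and other membrane damage, was the most abundant member. It stood at 596 and 625 CPM in the isotype and 550.0 and 525 CPM in the anti-CTLA-4 libraries of muMT, against 519 and 535 CPM and then 779 and 760.1 CPM in those of WT. WT anti-CTLA-4 was above all other libraries, whereas the WT isotype and muMT anti-CTLA-4 libraries overlapped at the bottom. The antibody effect was a 1.46-fold rise in WT (log2 0.55 ± 0.04 SE, adjusted p = 9.22e-12) and a fall by 0.18 in muMT (SE 0.04, adjusted p = 0.00076). The difference of the 2 effects was 0.73 ± 0.06 (SE, adjusted p = 4.52e-11). Between hosts the sign changed with treatment, since WT was lower than muMT under isotype (log2 -0.21 ± 0.04 SE, adjusted p = 0.000174) and higher under anti-CTLA-4 (log2 0.52 ± 0.04 SE, adjusted p = 1.39e-11). The fall in muMT lost its call without muMT anti-CTLA-4 replicate 2 (giving adjusted p = 0.077, and 4.82e-05 to 0.077 over all alternatives). Per kilobase of its principal transcript Nlrp3 averaged 131 to 191 CPM per kb over the groups, above the next member, Casp4 in muMT isotype (61.8) or Gsdmd in the other groups (62.3 to 72.6). Pycard was left out of that order for want of a usable length.

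Nlrp1b, a sensor that is set free when its own N-terminal part is degraded, varied most among the members. Its levels were 41.6 and 42.7 CPM in the isotype and 50.3 and 47.1 CPM in the anti-CTLA-4 libraries of muMT, against 80.5 and 82.5 CPM and then 120.4 and 111 CPM in those of WT. No library of 1 group overlapped another group, and the order ran from muMT isotype up to WT anti-CTLA-4. WT exceeded muMT 1.93-fold under isotype (log2 0.95 ± 0.06 SE, adjusted p = 7.86e-14) and 2.38-fold under anti-CTLA-4 (log2 1.25 ± 0.06 SE, adjusted p = 2.81e-17). It rose with anti-CTLA-4 in both hosts, by 0.51 ± 0.06 (SE, adjusted p = 1.46e-08) in WT and by 0.21 ± 0.06 (SE, adjusted p = 0.00614) in muMT on the log2 scale. The effect was larger in WT by 0.30 ± 0.08 (SE, adjusted p = 0.00544). The muMT call was lost without muMT anti-CTLA-4 replicate 1 (giving adjusted p = 0.104, and 0.0035 to 0.104 over all alternatives), and the difference without muMT anti-CTLA-4 replicate 2 or WT anti-CTLA-4 replicate 1 (giving adjusted p = 0.0632 and 0.0664, and 0.0022 to 0.0664 over all alternatives). Nlrp1b has close relatives beside it in the genome, so its count is uncertain where reads fitted several places and were left uncounted. The pseudogene Nlrp1c-ps was at group means of 44.2 CPM in muMT with isotype and 47.2 CPM with anti-CTLA-4, and of 80.8 and 107 CPM in WT, and it was higher in WT under both antibodies (log2 0.87 ± 0.06 SE, adjusted p = 2.4e-13 under isotype, and log2 1.19 ± 0.06 SE, adjusted p = 4.45e-17 under anti-CTLA-4). Nlrp1a, the other relative listed, went from 14.2 to 25.2 CPM in muMT, a rise of 0.83 ± 0.08 (SE, adjusted p = 1.85e-09), and from 20.5 to 23.8 CPM in WT, a log2 change of 0.21 ± 0.08 (SE, adjusted p = 0.0527).

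Aim2, which binds double-stranded DNA in the cytosol, moved in opposite directions in the 2 hosts. Its levels were 85.4 and 81.7 CPM in the isotype and 58.0 and 57.4 CPM in the anti-CTLA-4 libraries of muMT, against 67.7 and 71.6 CPM and then 85.1 and 83.4 CPM in those of WT. The muMT anti-CTLA-4 libraries were the lowest of all, and those of muMT isotype and WT anti-CTLA-4 overlapped at the top. Mast cell markers had the same signs as Aim2 and Nlrp3, since 6 of the 7 tested rose in WT, 7 fell in muMT, and the effect was more positive in WT for 7. Most called T and NK cell markers also had these signs. Of the 10 tested, 4 rose and 1 fell in WT, and 0 rose and 3 fell in muMT. The effect was more positive in WT for 6 of them and in muMT for 1. The part of these 2 marker lists in either result was not tested. Aim2 rose by 0.27 ± 0.06 (SE, adjusted p = 0.000232) in WT and fell by 0.53 in muMT (SE 0.06, adjusted p = 3.44e-09). The difference of 0.81 ± 0.08 (SE, adjusted p = 1.32e-09) had the largest size among the members, and it was called under all alternatives run. Under isotype WT was below muMT (log2 -0.26 ± 0.06 SE, adjusted p = 0.000308), and under anti-CTLA-4 it was above (log2 0.55 ± 0.06 SE, adjusted p = 1.29e-09).

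Naip5 binds bacterial flagellin and then activates the partner Nlrc4. It was at 70.9 and 74.4 CPM in the isotype and 68.0 and 69.2 CPM in the anti-CTLA-4 libraries of muMT, against 84.2 and 82.1 CPM and then 98.9 and 93.3 CPM in those of WT. Both WT groups lay above both muMT groups, with no overlap anywhere. This is also the order of the groups in the share of reads in no gene, whose part in the result was not tested. Naip5 rose in WT by 0.21 ± 0.05 (SE, adjusted p = 0.00351), a call lost without WT anti-CTLA-4 replicate 1 (giving adjusted p = 0.0962, and 0.000209 to 0.0962 over all alternatives), and was at -0.08 ± 0.06 (SE, adjusted p = 0.241) in muMT. The difference was 0.29 ± 0.08 (SE, adjusted p = 0.00349). WT against muMT gave 0.19 ± 0.05 (SE, adjusted p = 0.00523) under isotype and 0.49 ± 0.05 (SE, adjusted p = 8.63e-09) under anti-CTLA-4. Naip2 and Naip6, paralogs that share sequence with it, and Nlrc4 were also higher in WT than in muMT under anti-CTLA-4, by 0.45, 0.74 and 0.54 on the log2 scale (adjusted p = 1.12e-09, 7.39e-11 and 7.87e-08). How the counting divided reads between Naip paralogs is uncertain, since reads that fit more than 1 place were dropped.

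Pycard, the adaptor that links most sensors to caspase-1, rose in muMT, and no rise was called in WT. Its levels were 61.4 and 63.6 CPM in the isotype and 97.5 and 96.6 CPM in the anti-CTLA-4 libraries of muMT, against 80.9 and 72.5 CPM and then 80.0 and 86.0 CPM in those of WT. The muMT anti-CTLA-4 libraries were the highest and those of muMT isotype the lowest, while the WT groups overlapped between them. The summed monocyte markers were also highest in muMT anti-CTLA-4, but most of that sum was Chil3, at a mean of 1741 CPM. Of the 8 markers 5 rose and 2 fell with anti-CTLA-4 in muMT, and 2 were higher and 4 lower in WT than in muMT under it. Ly6c2 and Plac8 averaged 165 and 157 CPM in WT anti-CTLA-4, above their 97.2 and 86.3 CPM in muMT anti-CTLA-4. The part of the monocyte markers in the result was not tested. In muMT Pycard rose 1.55-fold (log2 0.64 ± 0.06 SE, adjusted p = 2.78e-10). In WT it was at 0.11 ± 0.06 (SE, adjusted p = 0.148) with a 95% interval of -0.01 to 0.23, called without WT isotype replicate 1 (giving adjusted p = 0.0359, and 0.0359 to 0.731 over all alternatives). The difference was -0.52 ± 0.08 (SE, adjusted p = 8.2e-06). WT exceeded muMT under isotype (log2 0.30 ± 0.06 SE, adjusted p = 0.000171) and was lower under anti-CTLA-4 (log2 -0.22 ± 0.06 SE, adjusted p = 0.00152), a call lost without WT anti-CTLA-4 replicate 1 (giving adjusted p = 0.0597, and 1.03e-06 to 0.0597 over all alternatives). Reads on the strand opposite to Pycard made up 1.92% to 5.89% of the reads of both strands over the 8 libraries, more than for any other member but Gsdme.

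The ratio of sensor to adaptor RNA differed between groups. In muMT, reads of Aim2 over reads of Pycard went from 1.39 and 1.28 with isotype to 0.595 and 0.595 with anti-CTLA-4, and in WT from 0.836 and 0.987 to 1.06 and 0.970. The muMT anti-CTLA-4 ratio was the lowest and the muMT isotype ratio the highest, and the WT libraries overlapped. For Nlrp3 the ratio was taken as adaptor over sensor. Reads of Pycard over reads of Nlrp3 rose in muMT, from 0.103 and 0.102 under isotype to 0.177 and 0.184 under anti-CTLA-4. In WT they went from 0.156 and 0.136 to 0.103 and 0.113. With anti-CTLA-4 in muMT, Pycard thus rose relative to both Aim2 and Nlrp3. These ratios need no scaling between libraries, and were chosen after the values were seen.

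Casp1, the protease that matures IL-1β and IL-18, rose in both hosts. It was at 66.3 and 59.2 CPM in the isotype and 84.2 and 87.6 CPM in the anti-CTLA-4 libraries of muMT, against 52.0 and 59.4 CPM and then 93.6 and 95.9 CPM in those of WT. Both anti-CTLA-4 groups lay above both isotype groups, and the isotype groups overlapped. The rise was 1.70-fold in WT (log2 0.77 ± 0.06 SE, adjusted p = 3.42e-11) and 1.37-fold in muMT (log2 0.45 ± 0.06 SE, adjusted p = 6.3e-07). The effect was larger in WT by 0.31 ± 0.09 (SE, adjusted p = 0.00596), a call lost without WT isotype replicate 1 (giving adjusted p = 0.0755, and 0.000113 to 0.0755 over all alternatives). The host differences were small, at -0.17 ± 0.06 (SE, adjusted p = 0.0348) under isotype and 0.14 ± 0.06 (SE, adjusted p = 0.0509) under anti-CTLA-4. The first of these was not called in 9 of 16 alternatives (adjusted p 0.00142 to 0.461 over all, highest without WT isotype replicate 1 and 0.311 without muMT isotype replicate 1), and the second was called in 8 of 16 (adjusted p 0.00108 to 0.438).

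Casp4, which lies beside Casp1 on the same strand, rose in WT, and no change was called in muMT. Its levels were 93.2 and 84.1 CPM in the isotype and 79.6 and 83.6 CPM in the anti-CTLA-4 libraries of muMT, against 59.3 and 65.0 CPM and then 97.0 and 93.0 CPM in those of WT. WT isotype was the lowest group, and the muMT isotype and WT anti-CTLA-4 libraries overlapped at the top. In WT it rose 1.53-fold (log2 0.61 ± 0.06 SE, adjusted p = 1.55e-09). In muMT it was at -0.12 ± 0.06 (SE, adjusted p = 0.105), with a 95% interval of -0.24 to 0.00, and was called lower without muMT isotype replicate 2 or with total reads as the only scaling (adjusted p = 0.0118 and 0.0213, and 0.0118 to 0.709 over all alternatives). The difference of the effects was 0.73 ± 0.08 (SE, adjusted p = 4.02e-08). WT was lower than muMT under isotype (log2 -0.51 ± 0.06 SE, adjusted p = 5.25e-08) and higher under anti-CTLA-4 (log2 0.22 ± 0.06 SE, adjusted p = 0.00233). That last call was lost in unstranded counts and without muMT anti-CTLA-4 replicate 1 or WT anti-CTLA-4 replicate 1 (giving adjusted p = 0.0616, 0.0645 and 0.0504, and 1.54e-06 to 0.0645 over all alternatives).

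Reads of Casp1 over reads of Casp4, its neighbour, went from 0.712 and 0.704 to 1.06 and 1.05 with anti-CTLA-4 in muMT, and from 0.876 and 0.913 to 0.966 and 1.03 in WT. The groups of each host did not overlap, and muMT isotype had the lowest ratios of all.

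**Figure D2:**
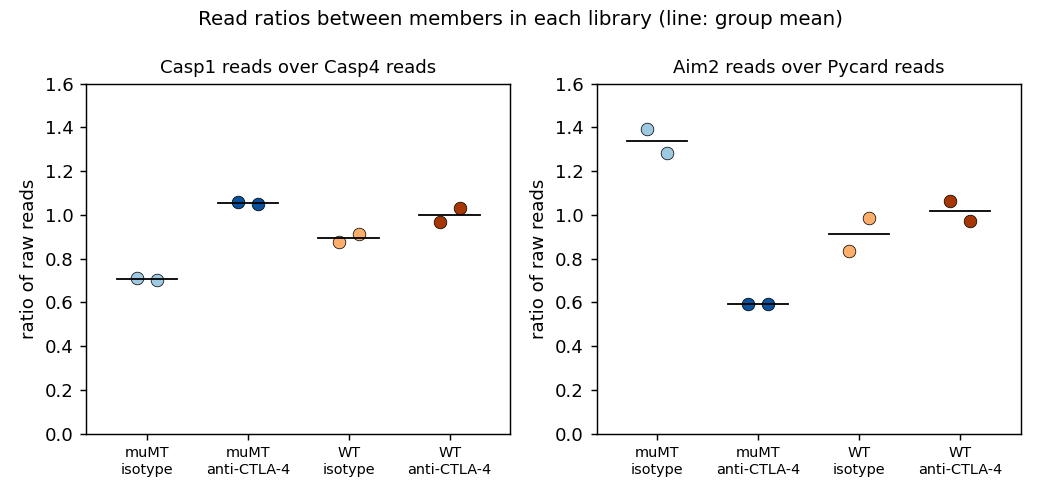
Ratios of raw reads between members in each library (points) with group means (lines), for Casp1 over Casp4 on the left and Aim2 over Pycard on the right, both axes starting at 0. Under anti-CTLA-4 in muMT the Casp1 over Casp4 ratio is above that of muMT isotype, and the Aim2 over Pycard ratio is below it.

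Casp8 starts death receptor apoptosis, restrains necroptosis and can cut gasdermin D or serve inflammasomes in place of caspase-1. It was the member that varied least, at 98.1 and 90.4 CPM in the isotype and 122 and 120.1 CPM in the anti-CTLA-4 libraries of muMT, against 104 and 106 CPM and then 108 and 106 CPM in those of WT. The muMT anti-CTLA-4 libraries were highest and the muMT isotype libraries lowest, with both WT groups close together between them. The sum of the monocyte markers, whose members went both ways as given for Pycard, was highest in the same group as Casp8. Most of that sum was Chil3. Casp8 rose in muMT by 0.36 ± 0.05 (SE, adjusted p = 1.13e-06) and was at 0.03 ± 0.05 (SE, adjusted p = 0.755) in WT, where the 95% interval of -0.08 to 0.13 does not reach the muMT estimate. The difference was -0.33 ± 0.07 (SE, adjusted p = 0.000528). WT against muMT gave 0.16 ± 0.05 (SE, adjusted p = 0.0171) under isotype and -0.18 ± 0.05 (SE, adjusted p = 0.00441) under anti-CTLA-4. The isotype call was lost in 4 of 16 alternatives (adjusted p 0.00148 to 0.161 over all), among them those without muMT isotype replicate 2 (0.161) or WT isotype replicate 2 (0.0803), and the other with total reads as the only scaling (adjusted p = 0.0513, and 1.06e-05 to 0.0513 over all alternatives).

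Gsdmd, the gasdermin cut by caspase-1 and caspase-11, rose in both hosts. It was at 91.9 and 91.0 CPM in the isotype and 121 and 119 CPM in the anti-CTLA-4 libraries of muMT, against 115 and 108 CPM and then 132 and 129 CPM in those of WT. The groups did not overlap, and muMT isotype was the lowest. It rose by 0.22 ± 0.05 (SE, adjusted p = 0.000862) in WT and by 0.39 ± 0.05 (SE, adjusted p = 2.09e-07) in muMT. The difference of -0.17 ± 0.07 (SE, adjusted p = 0.0657) did not pass the threshold, with a 95% interval of -0.31 to -0.02, but did so in unstranded counts and without muMT isotype replicate 1 or WT isotype replicate 2 (giving adjusted p = 0.0227, 0.0427 and 0.0276, and 0.0227 to 0.204 over all alternatives). WT exceeded muMT by 0.29 ± 0.05 (SE, adjusted p = 3.68e-05) under isotype. Under anti-CTLA-4 it was at 0.12 ± 0.05 (SE, adjusted p = 0.0434), a call that was lost in 7 of 16 alternatives (adjusted p 0.00163 to 0.597 over all). Among these were the fits without any 1 of the 4 anti-CTLA-4 libraries, with adjusted p of 0.116 to 0.239.

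Gsdme, the other gasdermin of the set, was the least abundant member, with 807 reads over the 8 libraries. Its levels were 2.51 and 2.81 CPM in the isotype and 2.90 and 3.17 CPM in the anti-CTLA-4 libraries of muMT, against 3.36 and 3.58 CPM and then 4.85 and 5.44 CPM in those of WT. The groups did not overlap, and the order was the one seen for Nlrp1b. It rose in WT by 0.57 ± 0.17 (SE, adjusted p = 0.0115), was at 0.19 ± 0.19 (SE, adjusted p = 0.448) in muMT, and was higher in WT than in muMT under anti-CTLA-4 by 0.76 ± 0.17 (SE, adjusted p = 0.000452). The isotype comparison of the hosts gave 0.38 ± 0.19 (SE, adjusted p = 0.105), and the difference of the effects 0.38 ± 0.26 (SE, adjusted p = 0.262). Most reads at Gsdme lay on the opposite strand, which held 62.2% to 81.1% of the reads of both strands over the 8 libraries. In the mouse annotation GENCODE M21, Mpp6 overlaps Gsdme on that strand, so the reads of the pair can be told apart by strand alone. In unstranded counts, which add both strands, the rise in WT was 0.08 (adjusted p = 0.662) and the host difference under anti-CTLA-4 0.23 (adjusted p = 0.0907). The WT call was also lost without WT isotype replicate 1 or WT anti-CTLA-4 replicate 2 (giving adjusted p = 0.0914 and 0.128, and 0.00546 to 0.662 over all alternatives).

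**Figure D3:**
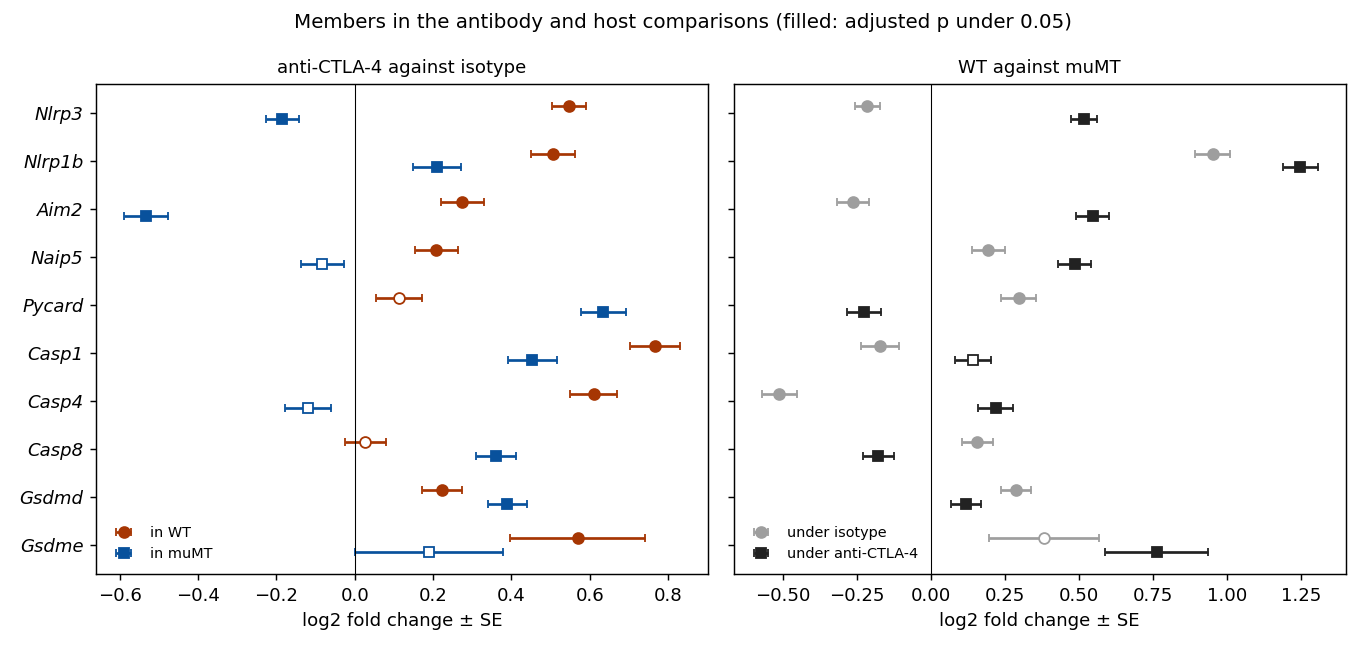
Log2 fold changes of the 10 members with SE from the edgeR fit (bars), for anti-CTLA-4 against isotype in each host (left) and for WT against muMT under each antibody (right), where filled symbols passed an adjusted p of 0.05. Nlrp3 and Aim2 lie on opposite sides of 0 in the 2 hosts, and Nlrp1b has the largest host differences, 0.95 and 1.25.

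The genes most like each member were sought among 9751 other genes with a mean of at least 5 CPM, by the root mean square difference of centred log2 CPM over the 8 libraries. Nlrp3 was nearest to Icam1 (0.0357), Birc3 (0.0379) and Enc1 (0.0478), each with its difference. Icam1 encodes a leukocyte adhesion ligand and Birc3 the ubiquitin ligase cIAP2. Nlrp1b was nearest to Rnaset2b (0.0702), Trps1 (0.0750) and Nlrp1c-ps (0.0762), the last being its neighbouring pseudogene. Casp1 was nearest to Mdm2 (0.0568), Ripk2 (0.0662) and Rnf128 (0.0818), where Ripk2 is the kinase of NOD receptor signalling. Casp4 was nearest to Lilrb4b (0.0333), Sgms1 (0.0619) and Mettl6 (0.0748), and Aim2 to Ints6 (0.0391), Cd34 (0.0392) and Cd82 (0.0493). Naip5 was nearest to Camk1d (0.0246), Lacc1 (0.0363) and Pirb (0.0397), of which Pirb is an inhibitory receptor of myeloid cells. Pycard was nearest to Dbnl (0.0380), C1rl (0.0420) and Nagk (0.0532), Casp8 to Eprs1 (0.0189), Tbc1d13 (0.0268) and Hat1 (0.0343), and Gsdmd to Oma1 (0.0431), Man1a (0.0452) and Srpk1 (0.0474). Gsdme, whose mean was under 5 CPM, was left out. With 4 groups of 2 libraries many genes share an order of groups, so these distances are descriptions.

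The wider pathway was read from 5 lists of other inflammasome and pyroptosis genes, of which 62 of 75 were tested. With anti-CTLA-4 in WT 31 rose and 10 fell, and in muMT 24 rose and 11 fell. Among all tested genes 14.7% rose and 15.9% fell in WT, and 22.1% rose and 20.4% fell in muMT, and among genes with a mean of at least 50 CPM 53.3% and 62% were called. These shares are the background of the counts of each list below. The count of pathway genes that fell in WT was 5 without WT anti-CTLA-4 replicate 2. With total reads as the only scaling, 20 fell in muMT. The median log2 fold change was 0.20 in WT and 0.04 in muMT, against -0.01 and -0.00 for all tested genes. The lists were not tested as sets.

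Il1b, the main substrate of caspase-1, was the most abundant gene of these lists by CPM. It was at 3410.2 and 3201 CPM in the isotype and 3388 and 3414 CPM in the anti-CTLA-4 libraries of muMT, against 3677 and 3771 CPM and then 4694 and 4761 CPM in those of WT. WT anti-CTLA-4 was the highest group, and the muMT groups overlapped. Il1b rose in WT by 0.34 ± 0.04 (SE, adjusted p = 2.9e-08) and was at 0.04 ± 0.04 (SE, adjusted p = 0.429) in muMT. Il1a, an alarmin of the same family that needs no caspase-1, was at 975 and 859 CPM in the isotype and 918 and 914 CPM in the anti-CTLA-4 libraries of muMT, against 666 and 693 CPM and then 1344 and 1338 CPM in those of WT. It rose 1.97-fold in WT (log2 0.98 ± 0.05 SE, adjusted p = 9.65e-17), was at -0.00 ± 0.05 (SE, adjusted p = 0.991) in muMT, and differed between them by 0.98 ± 0.07 (SE, adjusted p = 5.24e-13). The muMT isotype libraries of Il1a enclosed the muMT anti-CTLA-4 values. Il18, the other substrate of caspase-1, went from 28.6 ± 0.256 to 24.2 ± 1.07 CPM in muMT and from 26.2 ± 1.05 to 24.0 ± 0.0569 CPM in WT (SD, n = 2). It fell in muMT by 0.24 (adjusted p = 0.00968) and was at -0.13 ± 0.08 (SE, adjusted p = 0.229) in WT. Its decoy Il18bp rose in WT by 0.47 ± 0.05 (SE, adjusted p = 7.93e-10) and fell in muMT by 0.44 (adjusted p = 4.4e-09), a difference of 0.91 ± 0.06 (SE, adjusted p = 1.7e-12). Among the brakes on IL-1, the receptor antagonist Il1rn rose in both hosts, by 0.81 ± 0.04 (SE, adjusted p = 8.25e-16) in WT and 0.59 ± 0.04 (SE, adjusted p = 1.62e-12) in muMT. The decoy receptor Il1r2 fell in both, by 0.56 and 0.51 (adjusted p = 7.52e-11 and 2.72e-10), and was lowest in WT anti-CTLA-4 at 122 and 117 CPM. Il1rap, the shared accessory chain of IL-1 receptors, rose in muMT by 0.37 ± 0.07 (SE, adjusted p = 9.38e-05) and was at -0.07 ± 0.08 (SE, adjusted p = 0.523) in WT, and Hmgb1, an alarmin, differed between the effects by -0.35 ± 0.07 (SE, adjusted p = 0.000353). Of the 10 genes of this list of cytokines and receptors, 6 rose and 2 fell in WT, and 2 rose and 3 fell in muMT.

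Of the list of other sensors and their relatives, 14 of 18 were tested, and 9 rose and 1 fell in WT, while 6 rose and 1 fell in muMT. Those that rose in WT include the pseudogene Nlrp1c-ps and Nlrc5, so the count is not of sensors alone. Zbp1, which senses left-handed nucleic acid and drives cell death, rose in both hosts, from 74.2 and 70.9 to 125 and 122 CPM in WT (log2 0.77 ± 0.05 SE, adjusted p = 5.45e-13) and from 54.7 and 57.4 to 99.2 and 98.3 CPM in muMT (log2 0.82 ± 0.05 SE, adjusted p = 1.97e-13). Nlrc5, the transactivator of MHC class I genes, also rose in both, by 0.71 and 0.58 (adjusted p = 7.96e-14 and 1.37e-11). Mefv, which encodes the inflammasome sensor pyrin, rose in WT by 0.58 ± 0.05 (SE, adjusted p = 1.36e-11) and was at -0.11 ± 0.05 (SE, adjusted p = 0.0519) in muMT, a difference of 0.69 ± 0.07 (SE, adjusted p = 7.67e-10). Its binding partner Pstpip1 had 0.63 ± 0.07 (SE, adjusted p = 4.55e-09) in WT, -0.13 ± 0.07 (SE, adjusted p = 0.102) in muMT and a difference of 0.76 ± 0.09 (SE, adjusted p = 1.06e-07). Naip2 rose in WT by 0.43 ± 0.05 (SE, adjusted p = 7.88e-09) and was at 0.09 ± 0.05 (SE, adjusted p = 0.122) in muMT, and Nlrc4 rose in WT by 0.19 ± 0.07 (SE, adjusted p = 0.0288) and was at -0.13 ± 0.07 (SE, adjusted p = 0.134) in muMT. Nlrx1, a mitochondrial member of the NLR family, was at -0.10 ± 0.09 (SE, adjusted p = 0.443) in WT and rose by 0.58 ± 0.08 (SE, adjusted p = 1.03e-06) in muMT.

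**Figure D4:**
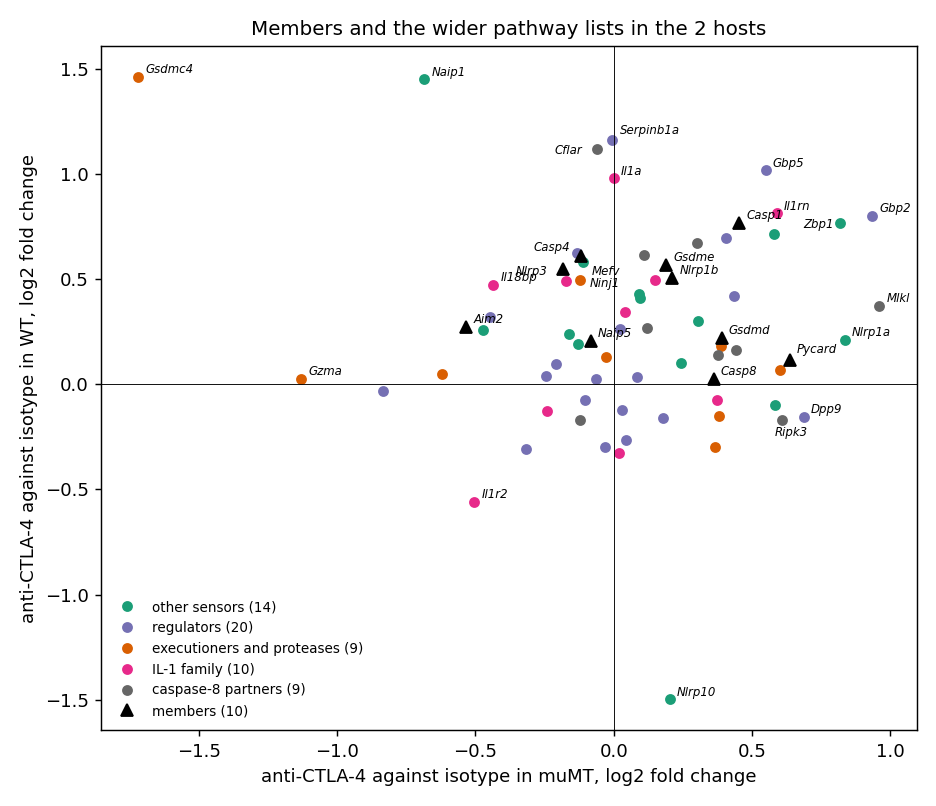
Log2 fold change of anti-CTLA-4 against isotype in muMT (horizontal axis) and in WT (vertical axis) for the 10 members (triangles) and the 62 tested genes of the wider lists (circles, coloured by list), with some genes named. Il1a and Cflar lie high at about 0 on the muMT axis, and Mlkl, Ripk3 and Dpp9 lie far to the right. Gbp2, Zbp1 and Nlrp1a also lie far to the right, and Gsdmc4, Naip1 and Serpinb1a, which have few reads, lie higher than Cflar.

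Of the regulators, 20 of 21 were tested, and 7 rose and 4 fell in WT, against 6 and 4 in muMT. Gbp2 and Gbp5, guanylate-binding proteins that expose bacterial products to caspase-11 and Aim2, rose in both hosts, by 0.80 and 1.02 in WT and by 0.93 and 0.55 in muMT (adjusted p at most 1.86e-09). Irgm2, an interferon-induced GTPase, rose in both, by 0.70 ± 0.07 (SE, adjusted p = 8.73e-10) in WT and 0.40 ± 0.07 (SE, adjusted p = 2.87e-05) in muMT, and more so in WT by 0.29 ± 0.10 (SE, adjusted p = 0.0189). Trim30a, a ubiquitin ligase, also rose in both, by 0.42 ± 0.05 (SE, adjusted p = 2.95e-08) and 0.43 ± 0.05 (SE, adjusted p = 1.48e-08). P2rx7, the ATP-gated channel upstream of Nlrp3, fell in both, by 0.31 and 0.32 (adjusted p = 1.57e-05 and 4.77e-06). Nek7, the kinase that binds Nlrp3, was at 0.10 ± 0.05 (SE, adjusted p = 0.154) in WT and fell in muMT by 0.21 (adjusted p = 0.00152). Txnip, the thioredoxin-binding protein linked to Nlrp3, was at 0.03 and -0.07 (adjusted p = 0.71 and 0.239). Tnfaip3, the A20 enzyme that restrains NF-kB and Nlrp3, had the same signs as Nlrp3, with a rise of 0.32 ± 0.04 (SE, adjusted p = 1.07e-07) in WT and a fall by 0.45 in muMT (adjusted p = 1.11e-10). Dpp9, a protease that holds Nlrp1b inactive, rose in muMT by 0.69 ± 0.08 (SE, adjusted p = 1.2e-07) and was at -0.15 ± 0.08 (SE, adjusted p = 0.179) in WT, a difference of -0.84 ± 0.12 (SE, adjusted p = 2.08e-06).

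Of the executioners and related proteases, 9 of 17 were tested, and 4 rose and 1 fell in WT, against 4 and 3 in muMT. Ninj1, which ruptures the plasma membrane after pore formation, was at 149 and 149 CPM in the isotype and 135 and 138 CPM in the anti-CTLA-4 libraries of muMT, against 117 and 100.1 CPM and then 149.8 and 156 CPM in those of WT. It rose in WT by 0.50 ± 0.06 (SE, adjusted p = 2.15e-08), was at -0.12 ± 0.06 (SE, adjusted p = 0.0796) in muMT, and differed by 0.62 ± 0.08 (SE, adjusted p = 2.25e-07). WT isotype held the lowest Ninj1 libraries. Casp9, the initiator of mitochondrial apoptosis, fell in WT by 0.30 (adjusted p = 0.0097) and rose in muMT by 0.36 ± 0.09 (SE, adjusted p = 0.00113). Gzma and Gzmb, granzymes of cytotoxic lymphocytes, fell in muMT by 1.13 and 0.62 (adjusted p = 7.89e-09 and 4.78e-06), beside T and NK cell markers, of which Gzmb is one, at 50.4 and 54.3 CPM in muMT isotype and 42.3 and 42.5 CPM in muMT anti-CTLA-4. Gzmb itself averaged 19.5 and then 12.7 CPM, which is much of the fall of that sum. Of the 10 T and NK cell markers tested, 3 fell in muMT, Gzmb among them, and 0 rose. The part of lymphocyte RNA in the result was not tested. The other gasdermins were near 0. Gsdmc4 was the only further one with enough reads to be tested, with 37 and 11 reads in muMT with isotype and anti-CTLA-4 and 24 and 61 in WT.

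The last list holds partners of caspase-8. All 9 were tested, and 5 rose and 2 fell in WT, while 6 rose in muMT and 3 were not called. Cflar, the c-FLIP protein that holds caspase-8 in check, was at 230.0 and 224 CPM in the isotype and 217 and 218 CPM in the anti-CTLA-4 libraries of muMT, against 205 and 211 CPM and then 452 and 453 CPM in those of WT. WT anti-CTLA-4 lay far above the other 3 groups. Cflar rose 2.17-fold in WT (log2 1.12 ± 0.04 SE, adjusted p = 7.33e-19), against -0.06 ± 0.04 (SE, adjusted p = 0.297) in muMT and a difference of 1.18 ± 0.06 (SE, adjusted p = 1.53e-15). Ripk3 is the kinase and Mlkl the pore former of necroptosis. Ripk3 was at 53.7 and 58.5 CPM in the isotype and 83.2 and 88.0 CPM in the anti-CTLA-4 libraries of muMT, against 61.0 and 56.5 CPM and then 52.0 and 52.6 CPM in those of WT. It rose in muMT by 0.61 ± 0.06 (SE, adjusted p = 1.03e-09) and fell in WT by 0.17 (adjusted p = 0.0394), and the effects differed by -0.78 ± 0.09 (SE, adjusted p = 1.91e-08). Mlkl rose by 0.96 ± 0.06 (SE, adjusted p = 1.2e-13) in muMT and by 0.37 ± 0.06 (SE, adjusted p = 1.69e-05) in WT, a difference of -0.59 ± 0.09 (SE, adjusted p = 3.2e-06). Bid, which carries the caspase-8 signal to mitochondria, rose in WT by 0.62 ± 0.10 (SE, adjusted p = 6.74e-06) and was at 0.11 ± 0.10 (SE, adjusted p = 0.379) in muMT, a difference of 0.51 ± 0.14 (SE, adjusted p = 0.00384). The death receptor Fas rose in both hosts, by 0.67 ± 0.11 (SE, adjusted p = 2.14e-05) in WT and 0.30 ± 0.11 (SE, adjusted p = 0.032) in muMT. The adaptors Fadd and Tradd rose in muMT by 0.38 and 0.44 (adjusted p = 0.0269 and 0.000349) and were at 0.14 and 0.16 in WT (adjusted p = 0.509 and 0.224). The difference between the hosts was not called for Fas, Fadd or Tradd (adjusted p = 0.0667, 0.378 and 0.112).

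Between the hosts under anti-CTLA-4, 28 of the 62 genes were higher and 16 lower in WT, and under isotype 17 were higher and 16 lower (9 lower without WT isotype replicate 1). Among all tested genes 27.4% were higher and 28.7% lower in WT under anti-CTLA-4, and 19.9% and 19.2% under isotype. Under anti-CTLA-4 those higher in WT with the smallest p were Nlrp1c-ps, Gbp5 (1.25 ± 0.05 SE, adjusted p = 2.91e-18), Cflar (1.06 ± 0.04 SE, adjusted p = 1.76e-18), Il18bp (0.85 ± 0.05 SE, adjusted p = 8.05e-16) and Nlrc5 (0.71 ± 0.05 SE, adjusted p = 3.76e-14), and those higher in muMT Ripk3 (-0.71 ± 0.06 SE, adjusted p = 2.99e-11) and Hsp90ab1 (-0.40 ± 0.04 SE, adjusted p = 2.01e-09), a chaperone of NLR proteins. Casp6, a caspase of apoptosis, was also lower in WT (-0.66 ± 0.11 SE, adjusted p = 1.26e-05), and Apaf1, the scaffold of the apoptosome, was higher (0.28 ± 0.05 SE, adjusted p = 1.59e-05). Under isotype Il1a was lower in WT by 0.43 (adjusted p = 1.07e-08), as were Tnfaip3 by 0.45 and Ninj1 by 0.46 (adjusted p = 1.44e-10 and 9.83e-08), and Il1b was higher by 0.17 (adjusted p = 0.000809).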

How the data were processed

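Stranded total RNA libraries were made from sorted cells, per the labels' protocols. Deposited values are raw read counts of each gene, whole numbers on each strand. The submitters' processing notes list cutadapt 5.0, STAR 2.7, DESeq2 1.42.1 and the mm39 build, without their order. Which annotation was counted is not given in the sources used here. The 4 summary rows of each table were set aside, and the reverse-strand column was used because it held 23.3 to 26.5 times as many reads as the forward one.

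Counts were filtered by filterByExpr, normalised by TMM and modelled in edgeR 4.0.16 under R 4.3.3 as 4 group means over all 8 libraries, with robust quasi-likelihood dispersion and 4 residual degrees of freedom. Benjamini-Hochberg adjusted p-values run over all 16608 genes, with a threshold of 0.05. SE is the log2 fold change over the root of F. With 2 libraries a group no permutation test can reach a small p. The members and lists were chosen with earlier results of these data known. Text names all members, a fixed set of pathway genes and up to 4 genes of each list with the smallest p, except items that are not reported here. The fit was tested on simulated data with 50 genes changed at each fold. These were drawn at random from weakly and strongly expressed genes alike. At 1.25-fold it recovered 24 of 50 for the anti-CTLA-4 effect in WT and 17 of 50 for the difference between hosts. At 2-fold it recovered 47 and 41, with 8 false calls in each comparison. Small effects without a call may thus have been missed, though recovery at the members' own levels was not measured. Gene lengths and overlaps are from GENCODE M21 and promoters from RefSeq (GRCm38.p6), used by symbol only. The alternatives comprised no filter on low counts, scaling by DESeq2 size factors, unstranded counts, the replicate number as a block, no robust dispersion, only the compared libraries, the Wald test of DESeq2 1.42.0, each library left out, and, chosen after seeing the data, total reads as the only scaling.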

Additional observations from a re-analysis of the deposited data

Results flagged for a closer look

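The anti-CTLA-4 effect differed between the hosts, by a test of the difference itself (WT minus muMT, log2, edgeR), for 8 members: Nlrp3 (0.73), Nlrp1b (0.30), Aim2 (0.81), Pycard (-0.52), Casp1 (0.31), Casp4 (0.73), Casp8 (-0.33) and Naip5 (0.29). It also differed for Nlrc4 (0.32), Naip2 (0.34), Nek7 (0.31), Ninj1 (0.62), Il1a (0.98), Il1b (0.30), Il1rn (0.23), Ripk3 (-0.78) and Mlkl (-0.59). Pycard, Casp8, Ripk3 and Mlkl have the more positive effect in muMT, and the others named here in WT.

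The forward-strand column, which the comparisons do not use, held reads at Nlrp3 and Pycard that were higher in both WT anti-CTLA-4 libraries than in both WT isotype libraries. The group means were 1.46 CPM in WT isotype and 2.84 CPM in WT anti-CTLA-4 for Nlrp3, and 3.12 and 4.60 CPM for Pycard. In muMT the means went from 2.78 CPM with isotype to 1.79 CPM with anti-CTLA-4 for Nlrp3, and from 2.50 to 2.28 CPM for Pycard. At Nlrp3 these were 0.272% to 0.389% of the reads of both strands in WT, and at Pycard 3.77% to 5.89%. GENCODE M21 lists Gm45205 on the strand opposite to Pycard, and no gene opposite to Nlrp3. Over all genes the reverse column held 25.2 and 25.5 times the forward reads in WT isotype, and 23.3 and 23.3 times in WT anti-CTLA-4. The part of either in these rises was not tested. No sample could be checked as an outlier, since groups hold 2 libraries.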

How the results depend on the processing

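Of the members' log2 fold changes recomputed, 739 kept direction and side of the threshold, 35 lost a call, 14 gained one and 2 changed sign, both in unstranded counts and neither called: Casp8 in WT (-0.0065) and Gsdme in muMT (-0.11). Of the counts of calls recomputed, 309 stayed within 1.5 times and 7 did not. In unstranded counts 4 rather than 7 members were higher in WT than in muMT under anti-CTLA-4. With total reads as the only scaling 1 member rather than 2 was lower there, and 20 rather than 11 pathway genes fell in muMT. Leaving out single libraries gave 1 to 3 members lower in muMT with anti-CTLA-4 (1 without muMT anti-CTLA-4 replicate 2), 1 to 2 members lower in WT under anti-CTLA-4 (1 without WT anti-CTLA-4 replicate 1), 5 to 11 pathway genes lower in WT with anti-CTLA-4 (5 without WT anti-CTLA-4 replicate 2) and 9 to 16 pathway genes lower in WT under isotype (9 without WT isotype replicate 1). The cause of these changes was not tested. The replicate number shared by the titles did not pair the libraries (correlations of deviations -0.233 to 0.0611). With it as a replicate block, members called higher and lower were 8 and 0 in WT with anti-CTLA-4, 5 and 2 in muMT, 6 and 2 for the difference, 5 and 4 between hosts under isotype and 6 and 2 under anti-CTLA-4. Among the 10 members depth limits Gsdme most, whose 807 reads over all libraries give SEs of 0.17 and 0.19 on the log2 scale.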
